A study of Mus musculus with 15 samples.

Results

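The inflammasome and interleukin 1 family genes described here are Il1a, Il1b, Il1rn, Il18, Nlrp3, Casp1, Casp4, Gsdmd and P2rx7, chosen by gene symbol from the deposited count table of RAW264.7 macrophages. They are 9 of the 13342 genes of that table, and all 9 had enough counts to enter the tests, which covered 12798 genes. RAW264.7 is a mouse macrophage line transformed by Abelson murine leukemia virus, here at passages 6 to 14. The 15 RNA sequencing libraries fell into 5 groups of 3. Control cells were untreated and received fresh medium with 10% fetal bovine serum, as did every treated group. The Stober50 group received nonporous Stober silica of nominal size 50 nm, with a dosage label of 13.1 µg/ml, and the Stober500 group nonporous Stober silica of 500 nm, with a label of 16.8 µg/ml. The MSN500 group received mesoporous silica of 500 nm, labelled 111.8 µg/ml, and the MSN-PEG500 group pegylated mesoporous silica of 500 nm, labelled 84 µg/ml. The labels tie each value to the LC50, and whether it is the concentration applied was not clear from their wording. The particle and its dosage label changed together, so their parts cannot be told apart. Exposure is given as 24 h in the treatment protocol but as 4 h in the protocol for RNA extraction, and remains uncertain. Whether the 3 libraries of a group are separate cultures is not stated, and p-values therefore measure the spread between these libraries, which may be technical.

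Interleukin 1 alpha and interleukin 1 beta, encoded by Il1a and Il1b, signal through the same receptor, and Il1rn encodes the receptor antagonist that occupies this receptor without signalling. Pro-interleukin 1 beta and pro-interleukin 18 are made without a signal for secretion and are matured by caspase-1 (Casp1), which is activated in an inflammasome, a complex built by a sensor such as NLRP3 with the adaptor ASC (Pycard). Caspase-11, encoded by Casp4 in the mouse, responds to cytosolic lipopolysaccharide, and both caspases cleave gasdermin D (Gsdmd), whose fragment forms pores in the plasma membrane. P2rx7 encodes an ATP-gated cation channel whose opening lets potassium leave the cell, a trigger of NLRP3, and crystalline silica is a classic NLRP3 trigger in primed macrophages. RAW264.7 cells are known to lack ASC. In these data Pycard was in the authors' list of genes with fewer than 10 counts in every library. Transcript levels alone were measured, so nothing here reports cleavage or release of the proteins.

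The interleukin 1 ligands and their antagonist moved in different directions, and the sequences before their start sites are shown to let their promoters be compared. They are RefSeq sequences on GRCm38.p6, each the 250 bases before the start in the direction of transcription. Il1a and Il1b lie on the minus strand at chr2:129309973-129310222 and chr2:129371140-129371389. Il1rn lies on the plus strand of the same chromosome, and its 1st and 3rd RefSeq starts follow chr2:24336610-24336859 and chr2:24345121-24345370. Casp4, which rose with the mesoporous particles, follows chr9:5308599-5308848 on the plus strand. Capitals mark every match, on either strand, of the 7 motifs listed after the sequences.
Il1a: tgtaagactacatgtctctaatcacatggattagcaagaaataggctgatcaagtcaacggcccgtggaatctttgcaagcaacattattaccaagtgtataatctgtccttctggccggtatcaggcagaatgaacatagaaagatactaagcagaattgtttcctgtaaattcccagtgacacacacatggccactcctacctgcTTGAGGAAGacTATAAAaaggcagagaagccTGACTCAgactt
Il1b: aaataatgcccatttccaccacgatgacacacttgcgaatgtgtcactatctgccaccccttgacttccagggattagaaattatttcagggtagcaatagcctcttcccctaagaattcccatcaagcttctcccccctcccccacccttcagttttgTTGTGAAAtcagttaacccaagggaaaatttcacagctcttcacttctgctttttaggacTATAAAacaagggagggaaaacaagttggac
Il1rn, 1st start: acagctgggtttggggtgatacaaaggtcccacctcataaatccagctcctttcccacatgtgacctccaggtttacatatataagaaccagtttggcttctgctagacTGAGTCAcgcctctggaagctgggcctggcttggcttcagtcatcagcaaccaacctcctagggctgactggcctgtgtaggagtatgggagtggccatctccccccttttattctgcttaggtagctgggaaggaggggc
Il1rn, 3rd start: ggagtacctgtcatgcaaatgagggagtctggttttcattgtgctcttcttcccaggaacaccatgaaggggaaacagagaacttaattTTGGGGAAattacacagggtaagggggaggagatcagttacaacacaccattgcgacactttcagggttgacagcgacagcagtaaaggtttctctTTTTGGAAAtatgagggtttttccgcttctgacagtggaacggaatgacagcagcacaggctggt
Casp4: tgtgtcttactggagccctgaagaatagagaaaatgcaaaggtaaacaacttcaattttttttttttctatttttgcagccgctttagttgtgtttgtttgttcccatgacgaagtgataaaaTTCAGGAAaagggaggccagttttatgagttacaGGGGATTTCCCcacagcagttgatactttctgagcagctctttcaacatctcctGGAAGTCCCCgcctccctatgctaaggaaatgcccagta

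The motifs searched were TGANTCA for AP-1, TATAAA for a TATA box, TTNNGNAA for C/EBP, GAGGAAG for PU.1, CACGTG for an E-box, and the purine and pyrimidine patterns of NF-kB and of the interferon response element. Of 32851 promoters of this length in the table, 7.25% held the NF-kB pattern, 6.75% AP-1, 12.4% TATA, 36.8% C/EBP, 10.6% PU.1, 6.02% the E-box and 5.09% the interferon pattern. Il1a and Il1b each held TATAAA close to the start, beginning at -32 and -31, and neither window of Il1rn shown did. Il1a held TGACTCA from -12 and the 1st Il1rn start TGAGTCA from -141. Casp4 was the only one of the 5 windows shown with the NF-kB pattern, as GGAAGTCCCC from -39 and as GGGGATTTCC from -93, which overlaps GGGATTTCCC, a match on both strands. In Il1a the C/EBP match TTGAGGAA overlapped the PU.1 match GAGGAAG. Among the windows not shown, the 2nd starts of Casp4 and Nlrp3 also held the NF-kB pattern. A match describes the letters only, and Gsdmd had no entry in the promoter table, so 8 of 9 genes were matched.

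Library totals ran from 17683003 to 27253289 counts, and the rarest gene of the group, Il1a, had 37 to 152 counts per library. Values are given in CPM, counts scaled to the library total. Fold changes come from edgeR's quasi-likelihood test on all 15 libraries with TMM scaling, and calls were made where the p adjusted over all genes tested (Benjamini-Hochberg) was under 0.05. TMM factors, from 0.974 to 1.02, enter the fold changes and not the CPM. On the main axis of a principal component analysis the 6 mesoporous libraries lay at 19.3 or above and the other 9 at -10.2 or below. On the next axis MSN-PEG500 replicate 3 lay at 19.1, apart from the 4.85 and 3.48 of its replicates. Without it, 7 of the 9 genes were called in MSN-PEG500 against control, the number found with it, 0 rather than 1 in MSN-PEG500 against MSN500, and 7 rather than 8 over all 5 groups. Leaving out each library in turn, 3723 to 4246 of all genes were called in MSN-PEG500 against control (4397 with all libraries). In MSN-PEG500 against MSN500 it was 420 to 1032 (1027 with all), and over all 5 groups 5715 to 6765 (6364 with all). All 9 macrophage markers examined were present, with a summed level of 21302 to 22238 CPM in control. No B or T lymphocyte, epithelial or mast cell marker was in the count table, S100a8 was the only neutrophil marker (at most 1.42 CPM) and Pdgfrb the only fibroblast marker (at most 1.86 CPM). The Stober50 libraries summed to 22155 to 22524 CPM over these markers and the Stober500 libraries to 22800 to 24155. With 19239 to 20302 CPM in MSN500 and 18411 to 19741 CPM in MSN-PEG500, the sum was lower in both mesoporous groups, and its part in the results was not tested. Among the 9 macrophage markers, 6 fell and 1 rose in MSN500, beside 21.2% of all genes lower and 21.6% higher. In MSN-PEG500 5 fell and 1 rose, beside 16.9% of all genes lower and 17.5% higher. In a bulk culture fewer cells with a transcript and less of it per cell cannot be told apart.

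In untreated cells Gsdmd, Casp1 and Nlrp3 were the most abundant of the 9 transcripts per length. Per length, as deposited FPKM (counts scaled by exon length and library reads), mean control levels over 3 libraries were 59.7 ± 2.50 (SD) for Gsdmd, 56.4 ± 2.05 for Casp1 and 51.5 ± 3.11 for Nlrp3. Their places from the top among the 13342 genes were 1104, 1177 and 1317. Il18 (23.5 ± 1.49 FPKM), Il1rn (19.2 ± 1.52 FPKM) and P2rx7 (14.8 ± 0.463 FPKM) held the middle. Il1b stood at 7.83 ± 1.67 FPKM, Casp4 at 3.21 ± 0.220 FPKM and Il1a at 1.52 ± 0.468 FPKM, places 6752, 9177 and 10388. Among the genes that sense and cut, Nlrp3 and Casp1 thus lay above the ligand Il1b per length and Casp4 lay below it.

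**Figure D1:**
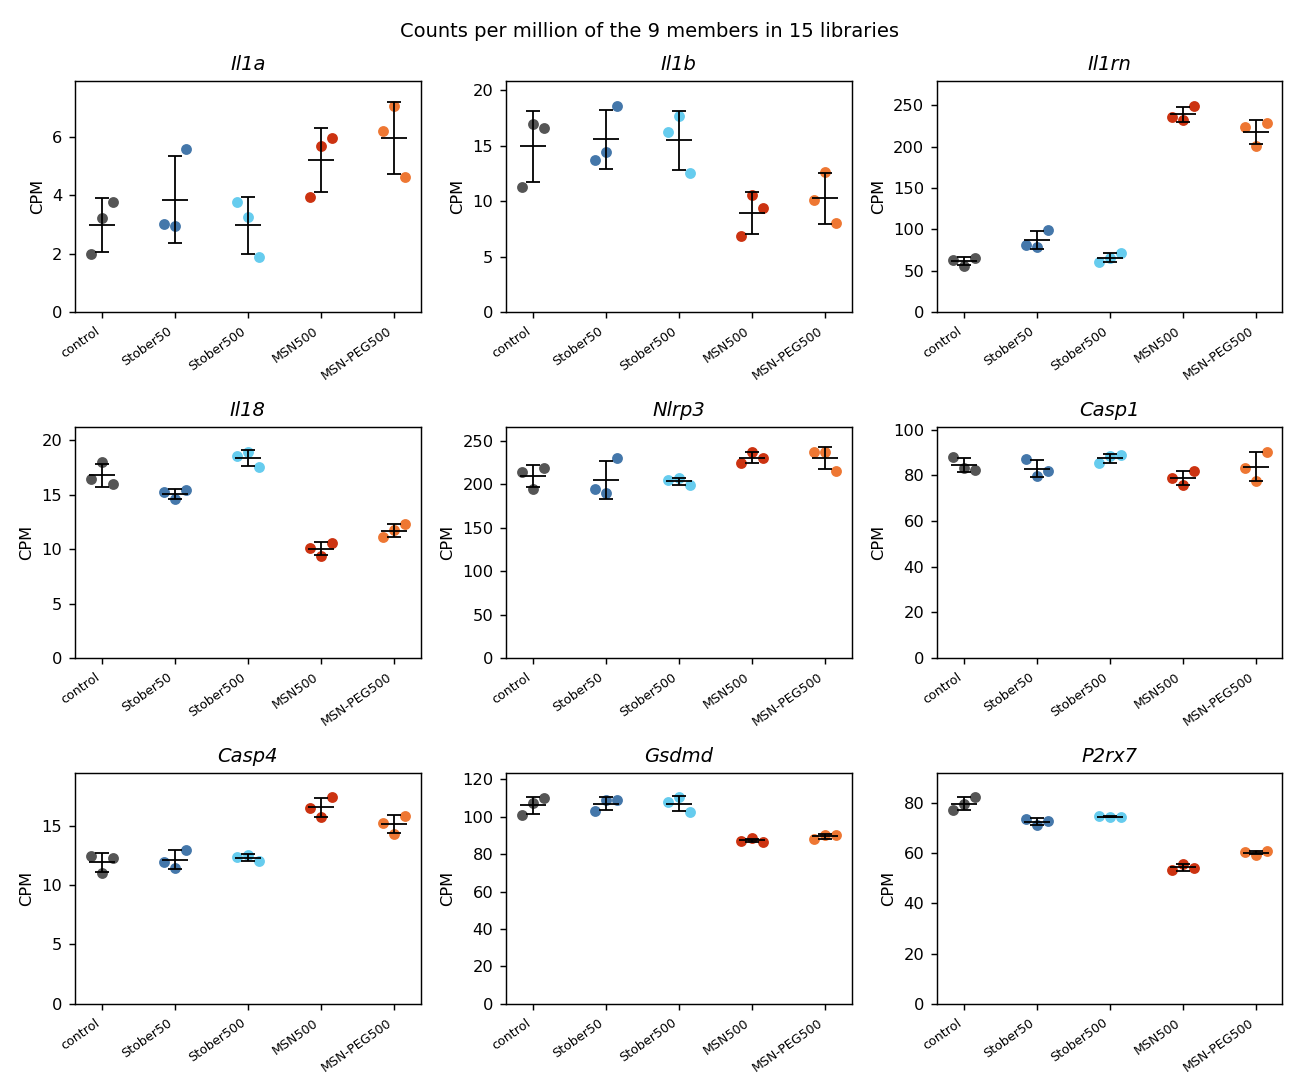
Levels of the 9 genes in each library, in CPM on linear axes from 0, by group. Points are libraries, and the black bar is the mean with its SD over 3 libraries. Il1rn lies at 201 to 249 CPM in the 6 mesoporous libraries against 56.2 to 99.3 in the other 9, while the Casp1 means differ little.

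Il1rn had the greatest change of the 9 genes. Its level was 62.8, 56.2 and 65.6 CPM in the control libraries, 81.5, 79.3 and 99.3 in Stober50 and 60.5, 65.7 and 71.0 in Stober500. With the mesoporous particles it was 236, 232 and 249 CPM in MSN500 and 224, 201 and 228 in MSN-PEG500. The 6 mesoporous libraries lay far above the rest, the Stober50 libraries lay between, and Stober500 overlapped control. Il1rn rose 4.07-fold in MSN500 (log2 2.03 ± 0.09, SE; adjusted p = 5e-11) and 3.68-fold in MSN-PEG500 (log2 1.88 ± 0.09; adjusted p = 1.66e-10). It rose 1.43-fold in Stober50 (log2 0.51 ± 0.09, adjusted p = 0.0027), and was not called in Stober500 (log2 0.10 ± 0.09, 95% interval -0.09 to 0.29, adjusted p = 0.722). These comparisons share the control libraries. Leaving out any of the 6 libraries compared kept the Stober50 log2 change of Il1rn between 0.42 and 0.58 and its adjusted p at 0.0152 or lower.

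The agonist Il1b changed the other way and with less certainty. The control libraries held 11.3, 17.0 and 16.6 CPM, Stober50 13.7, 14.5 and 18.6, and Stober500 16.3, 17.6 and 12.5. In MSN500 it was 6.87, 10.6 and 9.36 CPM, and in MSN-PEG500 10.1, 12.6 and 8.07. All MSN500 libraries lay below the lowest control, while MSN-PEG500 overlapped control. Il1b fell in MSN500 by 0.66 ± 0.23 on the log2 scale (adjusted p = 0.0393), and was lower there than in Stober50 (log2 -0.75 ± 0.22, adjusted p = 0.0232) and Stober500 (log2 -0.73 ± 0.23, adjusted p = 0.0239). The MSN-PEG500 difference from control of log2 -0.49 ± 0.23 was not called (adjusted p = 0.132, 95% interval -0.99 to 0.02). The MSN500 call of Il1b against control was lost when control replicate 2 or 3 or MSN500 replicate 1 or 3 was left out (adjusted p from 0.0813 to 0.132). It was also lost when those 2 groups alone were fitted (0.0679). The call against Stober500 was lost without Stober500 replicate 1 or 2 or MSN500 replicate 1 or 3 (0.0580 to 0.0809), and that against Stober50 was not refitted.

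Il1a, the least abundant of the ligands, was higher with the mesoporous particles. It was counted at 1.98, 3.24 and 3.78 CPM in control, 3.03, 2.95 and 5.58 in Stober50, 3.78, 3.27 and 1.88 in Stober500, 3.95, 5.71 and 5.95 in MSN500 and 6.21, 7.07 and 4.62 in MSN-PEG500. Both mesoporous groups lay wholly above control, and Stober50 replicate 3 reached into their range. Il1a rose 1.86-fold in MSN500 (log2 0.90 ± 0.33, adjusted p = 0.0438) and 2.09-fold in MSN-PEG500 (log2 1.06 ± 0.33, adjusted p = 0.0229). The MSN500 call was lost without control replicate 1 or 2 or MSN500 replicate 2 or 3 (adjusted p from 0.0669 to 0.149), with upper quartile factors (0.0501), with the exonic length trend removed (0.0551) and with the replicate block (0.0674). The MSN-PEG500 call was lost without control replicate 1 or MSN-PEG500 replicate 1 or 2 (0.0662 to 0.0808). In the GENCODE annotation Il1a overlaps the opposite-strand gene Gm14023, Il1b overlaps Il1bos and Il18 overlaps Bco2 and Tex12. The deposited span of Il18 is shorter, from chr9:50575273 rather than 50554827, with 714 exonic bases. It overlaps no other gene of the authors' deposited table. Whether strand was used in counting is not stated in the sources used here, so reads of overlapping partners cannot be told apart.

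Within a library the ratio of antagonist to agonist transcripts rose with both mesoporous particles. Il1rn over Il1b, as a ratio of FPKM, was 2.55 ± 0.696 (SD, n = 3) in control, 3.32 ± 0.192 in Stober50 and 2.60 ± 0.671 in Stober500. It was 16.4 ± 3.69 in MSN500 (13.1 to 20.4) and 13.2 ± 3.69 in MSN-PEG500 (9.46 to 16.8), with no overlap with the 9 other libraries, whose highest ratio was 3.54. Il1a rose, and over Il1a and Il1b together the ratio of Il1rn increased less. That ratio was 2.14 ± 0.616 in control, 2.70 ± 0.229 in Stober50 and 2.21 ± 0.639 in Stober500. It was 10.5 ± 2.33 in MSN500 and 8.41 ± 2.35 in MSN-PEG500. Il1b over Il1a fell from 5.29 ± 0.682 in control (4.55 to 5.90) to 1.78 ± 0.144 in MSN500 and 1.78 ± 0.0836 in MSN-PEG500. No test was run on these ratios, which are given as a description. Il1a and Il1b were lowest in the same library in 4 of 5 groups and highest in the same library in 2 of 5.

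**Figure D2:**
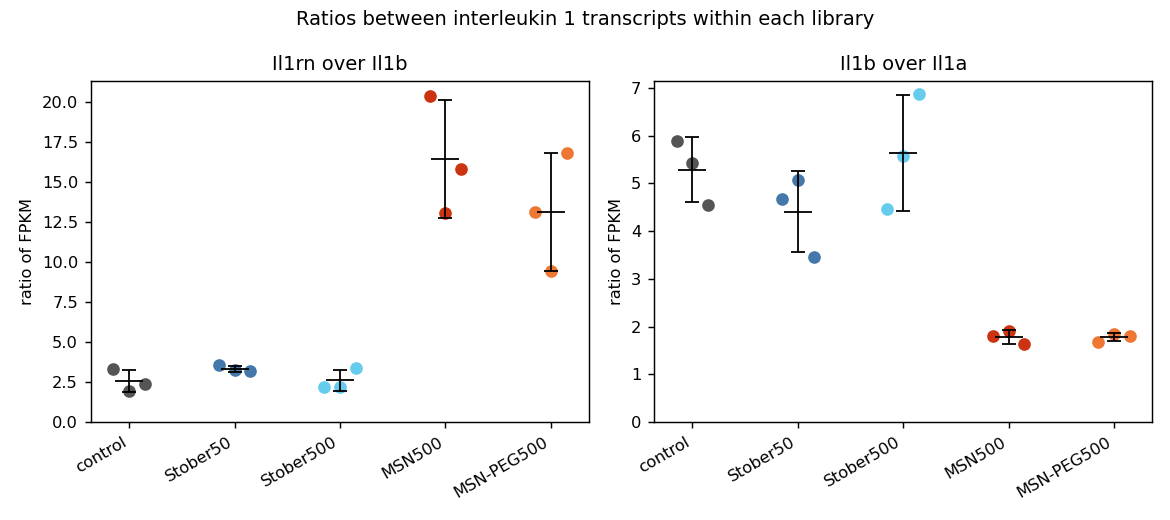
Ratio of FPKM of Il1rn over Il1b (left) and of Il1b over Il1a (right) in each library, on linear axes from 0. Points are libraries, and the black bar is the mean with its SD over 3 libraries. Il1rn over Il1b is 9.46 or more in the mesoporous libraries and at most 3.54 in the others, and Il1b over Il1a is at most 1.91 in the mesoporous libraries and at least 3.45 in the others.

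Il18, whose product is matured by caspase-1 like interleukin 1 beta, fell. Its level was 16.42, 18.001 and 15.98 CPM in control, 15.2, 14.6 and 15.4 in Stober50, 18.6, 19.0 and 17.6 in Stober500, 10.1, 9.42 and 10.6 in MSN500 and 11.1, 11.8 and 12.3 in MSN-PEG500. The mesoporous libraries were all below the other 9. Il18 fell by 0.68 ± 0.08 on the log2 scale in MSN500 (adjusted p = 4.5e-08) and by 0.47 ± 0.08 in MSN-PEG500 (adjusted p = 1.63e-05). The nonporous particles left it uncalled against control, at log2 -0.14 ± 0.07 in Stober50 (adjusted p = 0.242) and 0.14 ± 0.07 in Stober500 (adjusted p = 0.439). The transcripts of both ligands matured by caspase-1 were thus lower in MSN500, though the Il1b call was lost in 4 of 6 fits with 1 library left out.

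Nlrp3, the sensor, was slightly higher with both mesoporous particles. Control libraries held 214, 195 and 219 CPM, Stober50 195, 191 and 230.1, Stober500 205, 207 and 199, MSN500 224, 237 and 231, and MSN-PEG500 237, 238 and 215. Nlrp3 rose 1.16-fold in MSN500 (log2 0.21 ± 0.06, adjusted p = 0.00559) and 1.14-fold in MSN-PEG500 (log2 0.20 ± 0.06, adjusted p = 0.0118). In CPM the MSN500 libraries lay above all control libraries, and MSN-PEG500 replicate 3 lay within the control range. After TMM scaling the MSN-PEG500 and control libraries did not overlap. Without control replicate 2 the MSN-PEG500 call was lost (adjusted p = 0.0519).

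P2rx7, the ATP-gated channel upstream of NLRP3, fell. The control libraries held 77.3, 79.8 and 82.3 CPM, Stober50 73.8, 71.3 and 72.9, Stober500 74.8, 74.5 and 74.7, MSN500 53.3, 55.8 and 54.1, and MSN-PEG500 60.5, 59.5 and 60.8. Replicates were close to each other. In CPM the libraries of control, the nonporous particles, MSN-PEG500 and MSN500 did not overlap, with the nonporous ones just under control. P2rx7 fell by 0.48 ± 0.04 on the log2 scale in MSN500 (adjusted p = 2.16e-10) and by 0.35 ± 0.04 in MSN-PEG500 (adjusted p = 1.21e-07). It was the one gene called between those groups, 1.10-fold higher in MSN-PEG500 than in MSN500 (log2 0.14 ± 0.04, adjusted p = 0.0427), a call lost without any 1 of the 6 libraries (adjusted p from 0.0545 to 0.149). The values in Stober50 (log2 -0.12 ± 0.04, adjusted p = 0.069) and Stober500 (log2 -0.09 ± 0.04, adjusted p = 0.355) were not called. The microRNA gene Mir8115 overlaps P2rx7.

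The inflammatory caspases parted. Casp1 stood at 88.0, 83.2 and 82.3 CPM in control, 87.0, 79.7 and 81.9 in Stober50, 85.2, 88.5 and 88.7 in Stober500, 78.9, 75.7 and 81.9 in MSN500 and 83.3, 77.6 and 90.3 in MSN-PEG500. No particle changed Casp1 by the test, with log2 -0.03 ± 0.05 in MSN500 (95% interval -0.14 to 0.07, adjusted p = 0.625) and 0.04 ± 0.05 in MSN-PEG500 (-0.06 to 0.15, adjusted p = 0.538). The MSN500 libraries lay just below the control libraries in CPM but overlapped them after TMM scaling, at 77.8 to 84.2 against 80.5 to 86.1.

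Casp4 rose in both mesoporous groups. It was at 12.47, 10.98 and 12.31 CPM in control, 11.96, 11.47 and 12.99 in Stober50, 12.35, 12.55 and 11.997 in Stober500, 16.5, 15.8 and 17.4 in MSN500 and 15.3, 14.3 and 15.8 in MSN-PEG500. All 6 mesoporous libraries exceeded the other 9. The rise was 1.46-fold in MSN500 (log2 0.54 ± 0.08, adjusted p = 1.42e-06) and 1.32-fold in MSN-PEG500 (log2 0.40 ± 0.08, adjusted p = 0.000156). Casp1 and Casp4 are neighbours on the plus strand of chromosome 9, at 5298517 to 5307265 and 5308828 to 5336783 on GRCm38.

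Gsdmd, the substrate of both caspases, fell by a small amount. Its level was 101, 107 and 109.9 CPM in control, 103, 109 and 109 in Stober50, 108, 110.4 and 103 in Stober500, 87.1, 88.5 and 86.6 in MSN500 and 88.1, 90.5 and 90.3 in MSN-PEG500. The mesoporous libraries were all below the others. Gsdmd fell by 0.21 ± 0.04 on the log2 scale in MSN500 (adjusted p = 0.000159) and by 0.19 ± 0.04 in MSN-PEG500 (adjusted p = 0.000874).

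**Figure D3:**
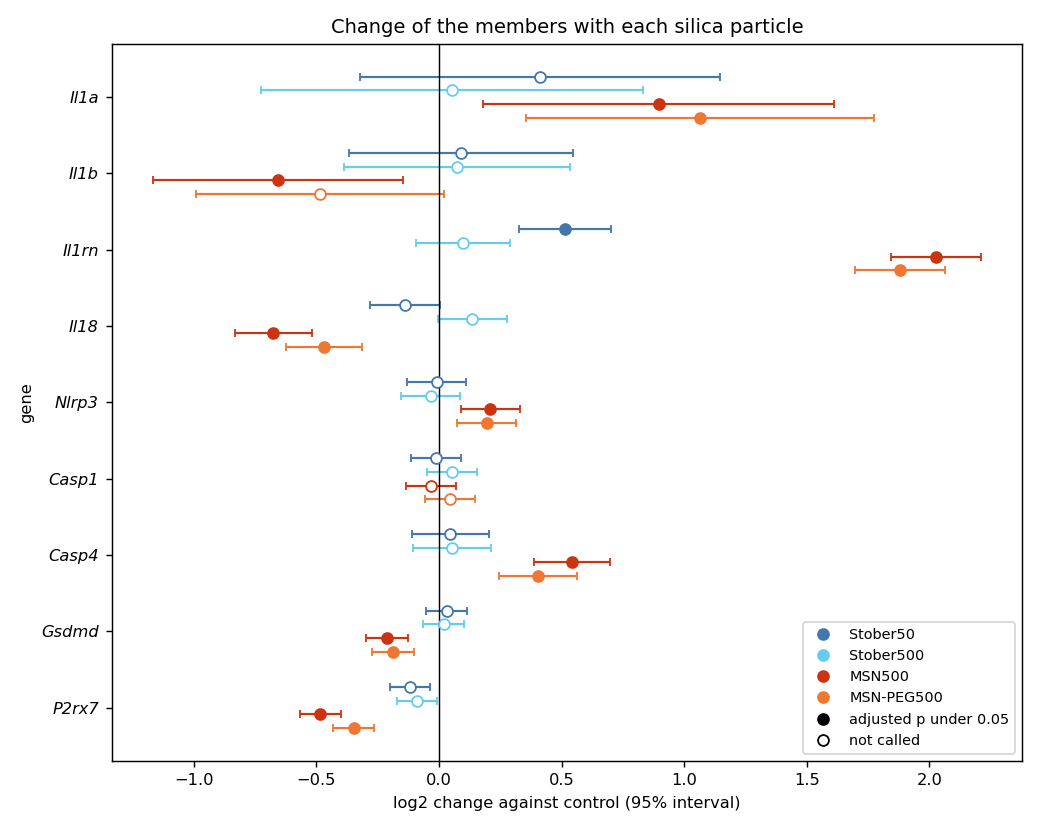
Log2 change of each gene against control for the 4 particles, with unadjusted 95% intervals from the edgeR fit. Filled points have an adjusted p under 0.05. Il1rn stands at 2.03 in MSN500 and 1.88 in MSN-PEG500, and every Stober500 point is open.

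Counted over the group, MSN500 against control called 8 of the 9 genes, 4 higher (Il1a, Il1rn, Nlrp3 and Casp4) and 4 lower (Il1b, Il18, Gsdmd and P2rx7), where 42.9% of all genes tested were called. In MSN-PEG500 against control 7 were called, 4 higher and 3 lower, beside 34.4% of all genes. Stober50 called 1, beside 7.57%. Stober500 called 0, beside 0.00781% of all genes, which is 1 gene by edgeR, while 1526 genes had an unadjusted p under 0.05, DESeq2 called 97 and limma-voom 2. Of the 9 genes, none was called in Stober500 against control by DESeq2 or limma-voom. The median absolute log2 change was 0.54 over the 9 genes and 0.17 over all genes in MSN500, 0.40 and 0.14 in MSN-PEG500, 0.09 and 0.08 in Stober50, and 0.05 and 0.07 in Stober500. Over all 5 groups together 8 of 9 were called, Casp1 being the exception (adjusted p = 0.448), beside 49.7% of all genes. Leaving out 1 library lost this call for Il1b in 9 of 15 fits (adjusted p up to 0.0871) and for Il1a in 7 of 15 (up to 0.0902). The replicate block also lost it for Il1a (0.0689). On TMM-scaled CPM the libraries of 8 of the 9 genes did not overlap between MSN500 and control, beside 52.8% of all genes, and those of 7 did not overlap between MSN-PEG500 and control, beside 42.7%. In the authors' deposited table, which used DESeq2, 8 of the 9 genes passed a score of 13 for control over MSN500, 7 for control over MSN-PEG500, 1 for control over Stober50 and 0 for control over Stober500. The share of all genes past that score was not counted, so these numbers cannot set the 9 genes apart from the rest.

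Among the nonporous particles Stober50 was compared directly with Stober500, where the dosage label (13.1 and 16.8 µg/ml) differed along with the size. Stober50 and Stober500 differed in 2 of the 9 genes, beside 2.24% of all genes. Il1rn was 1.33-fold higher in Stober50 (log2 0.42 ± 0.09, adjusted p = 0.019), and Il18 was lower there (log2 -0.27 ± 0.07, adjusted p = 0.0274). The Il1rn call was lost without Stober500 replicate 1 (adjusted p = 0.0744) or 2 (0.0773) and with these 2 groups fitted alone (0.0991). The Il18 call was lost without any 1 Stober50 library or without Stober500 replicate 1 or 2 (0.0692 to 0.159).

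MSN500 and Stober500 share the nominal size and differ in porosity and in dosage label (111.8 and 16.8 µg/ml), which cannot be told apart. Between them 7 of 9 genes were called, beside 39.4% of all genes. Il1rn was 3.81-fold higher in MSN500 (log2 1.93 ± 0.08, adjusted p = 8.27e-11), Casp4 1.40-fold higher (log2 0.49 ± 0.07, adjusted p = 5.69e-06) and Nlrp3 1.18-fold higher (log2 0.24 ± 0.06, adjusted p = 0.00177). Il18, Gsdmd and P2rx7 were lower, as was Il1b, whose call was lost without any 1 of 4 of the 6 libraries. Il18 had the greatest drop among these, at log2 -0.81 ± 0.07 (adjusted p = 1.22e-09). Il1a missed the threshold (log2 0.84 ± 0.32, adjusted p = 0.0546), and passed it by DESeq2 (0.0424), by limma-voom (0.0125), with these 2 groups fitted alone (0.00777) and without Stober500 replicate 1 (0.0470) or MSN500 replicate 1 (0.0351).

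MSN-PEG500 and MSN500 differ in pegylation and in dosage label (84 and 111.8 µg/ml), which cannot be told apart. Of the 9 genes P2rx7 was the 1 called between them, beside 8.02% of all genes. For Il1rn the difference was log2 -0.15 ± 0.08 (95% interval -0.32 to 0.02, adjusted p = 0.298), for Casp4 -0.14 ± 0.07 (-0.29 to 0.01, adjusted p = 0.263) and for Il18 0.21 ± 0.08 (0.04 to 0.38, adjusted p = 0.117). The intervals of the rarer ligands were wide, from -0.47 to 0.81 for Il1a and from -0.38 to 0.72 for Il1b. A difference that missed the threshold does not show that the coated and bare particles acted alike.

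Ordered by mean CPM over the groups, the 9 genes gave different ladders. Il1rn ran from MSN500 through MSN-PEG500, Stober50 and Stober500 down to control, and only the steps from MSN-PEG500 to Stober50 (adjusted p = 6.92e-09) and from Stober50 to Stober500 (0.019) passed the test. P2rx7 ran from control through Stober500, Stober50 and MSN-PEG500 down to MSN500, with a step at Stober50 to MSN-PEG500 (adjusted p = 6.76e-05) and at MSN-PEG500 to MSN500 (0.0427). For Il18 the step from Stober50 to MSN-PEG500 passed (adjusted p = 0.00114), for Gsdmd control to MSN-PEG500 (0.000874), for Casp4 MSN-PEG500 to Stober500 (0.000656) and for Nlrp3 MSN-PEG500 to control (0.0118). No neighbouring step passed for Il1a, Il1b or Casp1. With these steps, the break between mesoporous and other groups was the one shared by Il1rn, Il18, Nlrp3, Casp4, Gsdmd and P2rx7.

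The authors' deposited table also holds a test of exon use, in which replicates were not modelled. Il1rn was the only one of the 9 genes with an exon score above 0. The exon named lies at chr2:24345943-24346354 on GRCm38 and is exon 2 of the noncoding transcript Il1rn-206 in GENCODE M21, between coding exons. In the authors' deposited table its log2 ratio was 1.24 for control over MSN500, -1.03 for MSN500 over Stober50 and -1.09 for MSN500 over Stober500, so its share within the gene was lower in MSN500 while the gene as a whole rose. It is listed at 0 for the comparisons with MSN-PEG500. For control over MSN500, 29 of 13341 genes in the authors' deposited table passed an exon score of 13.

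**Figure D4:**
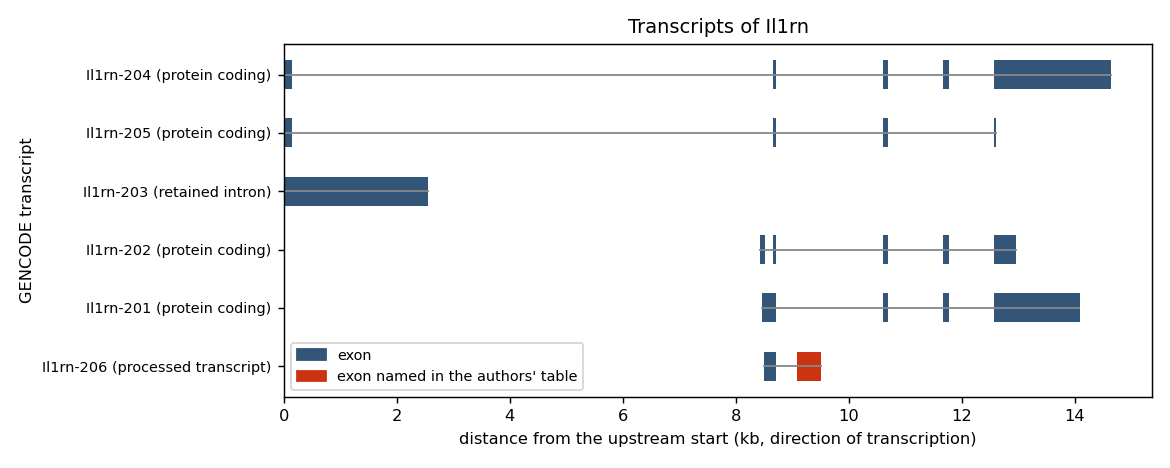
GENCODE transcripts of Il1rn, with distance from the upstream start in kb along the direction of transcription. Boxes are exons and lines introns. The red box is the exon named in the authors' deposited table, the second exon of Il1rn-206.

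Partners of these genes were counted in lists by role, beside the background for MSN500 of 21.6% of all genes higher and 21.2% lower, and for MSN-PEG500 of 17.5% higher and 16.9% lower. Of the 6 other interleukin 1 family ligands examined, among them Il33 and the Il36 genes, none was in the count table. The receptor list had 5 of 9 genes tested, with 0 higher and 2 lower in each mesoporous group (median log2 -0.09 and -0.06, against 0.00 and -0.01 for all genes). Il1r1, which encodes the signalling receptor of interleukin 1, was in the authors' list of genes under 10 counts, as was Il18r1. Il1r2, the decoy receptor, was below the filter at 0.218 CPM in control and 0.388 in MSN500. The shared accessory chain Il1rap was at 22.7 ± 2.04 CPM in control and was not called in MSN500 (log2 -0.09 ± 0.08, adjusted p = 0.378). Il18rap, the accessory chain of the interleukin 18 receptor, fell by 0.48 ± 0.08 on the log2 scale in MSN500 (adjusted p = 0.000118), and Il1rl1, the interleukin 33 receptor, fell by 0.16 ± 0.05 (adjusted p = 0.00887). Both also fell in Stober50, Il18rap by 0.28 ± 0.08 (adjusted p = 0.0392) and Il1rl1 by 0.22 ± 0.05 (adjusted p = 0.00590), the only 2 of the 5 called there. Il18bp, which binds and neutralises interleukin 18, stood at 0.826 CPM in control and 0.850 in MSN500 and was not called (adjusted p = 0.858).

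Signalling genes below the receptor split. Of 14 tested, 4 rose and 5 fell in MSN500 and 6 rose and 3 fell in MSN-PEG500 (median log2 0.05 and -0.01). Irak2, a kinase-like relay of the receptor complex, rose from 37.9 ± 0.830 to 64.4 ± 4.22 CPM in MSN500 (log2 0.83 ± 0.07, adjusted p = 7.19e-10) and to 67.5 ± 1.07 in MSN-PEG500 (log2 0.89 ± 0.07, adjusted p = 3.32e-10). Tollip, an adaptor that restrains the pathway, rose by log2 0.57 ± 0.04 in MSN500 (adjusted p = 3.22e-12). Irak4, the first kinase of the relay, fell by 0.34 ± 0.06 on the log2 scale (adjusted p = 1.67e-05), and Traf6, the ubiquitin ligase it leads to, rose by 0.21 ± 0.05 (adjusted p = 0.00155). In Stober50, 2 of the 14 rose and 0 fell, beside 7.57% of all genes called there. They were Irak2 (log2 0.24 ± 0.07, adjusted p = 0.0350) and Tollip (log2 0.15 ± 0.04, adjusted p = 0.0161).

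Other inflammasome sensors were mostly lower in MSN500, where 0 rose and 7 fell of 11 tested (median log2 -0.26), while 1 rose and 3 fell in MSN-PEG500 (median -0.14). Mefv, encoding pyrin, fell in MSN500 from 1.09 ± 0.198 to 0.470 ± 0.108 CPM (log2 -1.14 ± 0.28, adjusted p = 0.00175). Nlrp1b fell from 50.3 ± 2.29 to 35.3 ± 0.767 CPM (log2 -0.44 ± 0.06, adjusted p = 2.39e-07) and Nlrp1a by 0.50 ± 0.18 on the log2 scale (adjusted p = 0.0231). These are sensors of protease activity and near-identical neighbours, so their counts could be split between them. Naip5, a flagellin receptor, fell by 0.41 ± 0.08 in MSN500 (adjusted p = 0.000226), was not called in MSN-PEG500 (log2 -0.12 ± 0.08, adjusted p = 0.264), and was higher in MSN-PEG500 than in MSN500 (log2 0.29, adjusted p = 0.0379). Its paralogs of the same family share sequence as well. In Stober50, Nlrp1b was the 1 of the 11 called, beside 7.57% of all genes. It was lower there by 0.20 ± 0.05 on the log2 scale (adjusted p = 0.0181).

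Regulators of NLRP3 went both ways, with 6 higher and 4 lower of 16 tested in each mesoporous group (median log2 -0.00 and 0.02). P2rx4, the ATP-gated channel related to P2rx7, rose from 34.6 ± 2.30 to 59.8 ± 2.72 CPM in MSN500 (log2 0.86 ± 0.06, adjusted p = 2.29e-12) and to 56.2 ± 1.99 in MSN-PEG500 (log2 0.76 ± 0.06, adjusted p = 4.93e-11). P2rx7 had fallen in the same libraries, and P2rx4 also rose in Stober50 (log2 0.28 ± 0.06, adjusted p = 0.00396). Fbxl2, a ubiquitin ligase component that targets NLRP3, rose by log2 1.34 ± 0.19 in MSN500 (adjusted p = 2.06e-06) from 1.10 ± 0.227 CPM. Slc7a11, the cystine transporter, rose by log2 0.99 ± 0.11 (adjusted p = 1.65e-05). Ptpn22, a phosphatase acting on NLRP3, fell by 0.56 ± 0.05 on the log2 scale (adjusted p = 7.19e-10) and Txnip, a thioredoxin-binding partner of NLRP3, by 0.36 ± 0.08 (adjusted p = 0.00156). Nek7, the kinase-family protein that NLRP3 needs, was at 122 ± 4.88 CPM in control and was not called in MSN500 (log2 -0.07 ± 0.06, adjusted p = 0.369). Casp8 fell by 0.11 ± 0.04 in MSN500 (adjusted p = 0.0261).

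The execution and repair list had 4 higher and 1 lower of 8 tested in MSN500 (median log2 0.11) and 2 higher and 1 lower in MSN-PEG500 (median 0.05). Gasdermin E, listed as Dfna5, fell from 26.1 ± 2.35 to 11.7 ± 1.37 CPM in MSN500 (log2 -1.08 ± 0.08, adjusted p = 1.41e-11). Ninj1, needed for membrane rupture after pore formation, rose by log2 0.61 ± 0.05 (adjusted p = 1.36e-09), and Serpinb9, an inhibitor of granzyme B, by 0.72 ± 0.08 (adjusted p = 9.42e-08). Vps4a, an ATPase of the membrane repair machinery, rose by log2 0.14 ± 0.04 (adjusted p = 0.00706). Of these, Ninj1 also rose in Stober50 (log2 0.27 ± 0.05, adjusted p = 0.00277).

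Interferon factors and guanylate binding proteins, which act upstream of caspase-11, had 2 higher and 5 lower of 12 tested in each mesoporous group (median log2 -0.19 and -0.23), although Casp4 itself rose. Irf1 fell by 0.59 ± 0.09 on the log2 scale in MSN500 (adjusted p = 2.76e-06), Gbp9 by 0.59 ± 0.18 (adjusted p = 0.0101) and the interferon receptor chain Ifnar2 by 0.32 ± 0.04 (adjusted p = 1.96e-07), while Irf8 rose by log2 0.44 ± 0.06 (adjusted p = 7.01e-07).

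Factors and feedback genes known from the priming of Il1b had 7 higher and 1 lower of 14 tested in MSN500 (median log2 0.26) and 5 higher and 3 lower in MSN-PEG500 (median 0.09). Tnfaip3, the NF-kB feedback inhibitor A20, rose from 22.0 ± 1.72 to 54.3 ± 5.47 CPM in MSN500 (log2 1.37 ± 0.14, adjusted p = 3.58e-06). Bhlhe40, which represses Il10, rose by log2 1.29 ± 0.06 in MSN500 (adjusted p = 7.25e-16), and Il10 fell by 1.27 ± 0.17 on the log2 scale (adjusted p = 5.4e-07) from 6.60 ± 0.494 CPM. Hif1a rose by log2 0.50 ± 0.05 (adjusted p = 2e-08). Il1b itself fell in the same libraries. In Stober50, 3 of the 14 rose and 0 fell, beside 7.57% of all genes called there. Among them were Bhlhe40 (log2 0.51 ± 0.06, adjusted p = 3.2e-06) and Tnfaip3 (log2 0.52 ± 0.14, adjusted p = 0.0452).

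**Figure D5:**
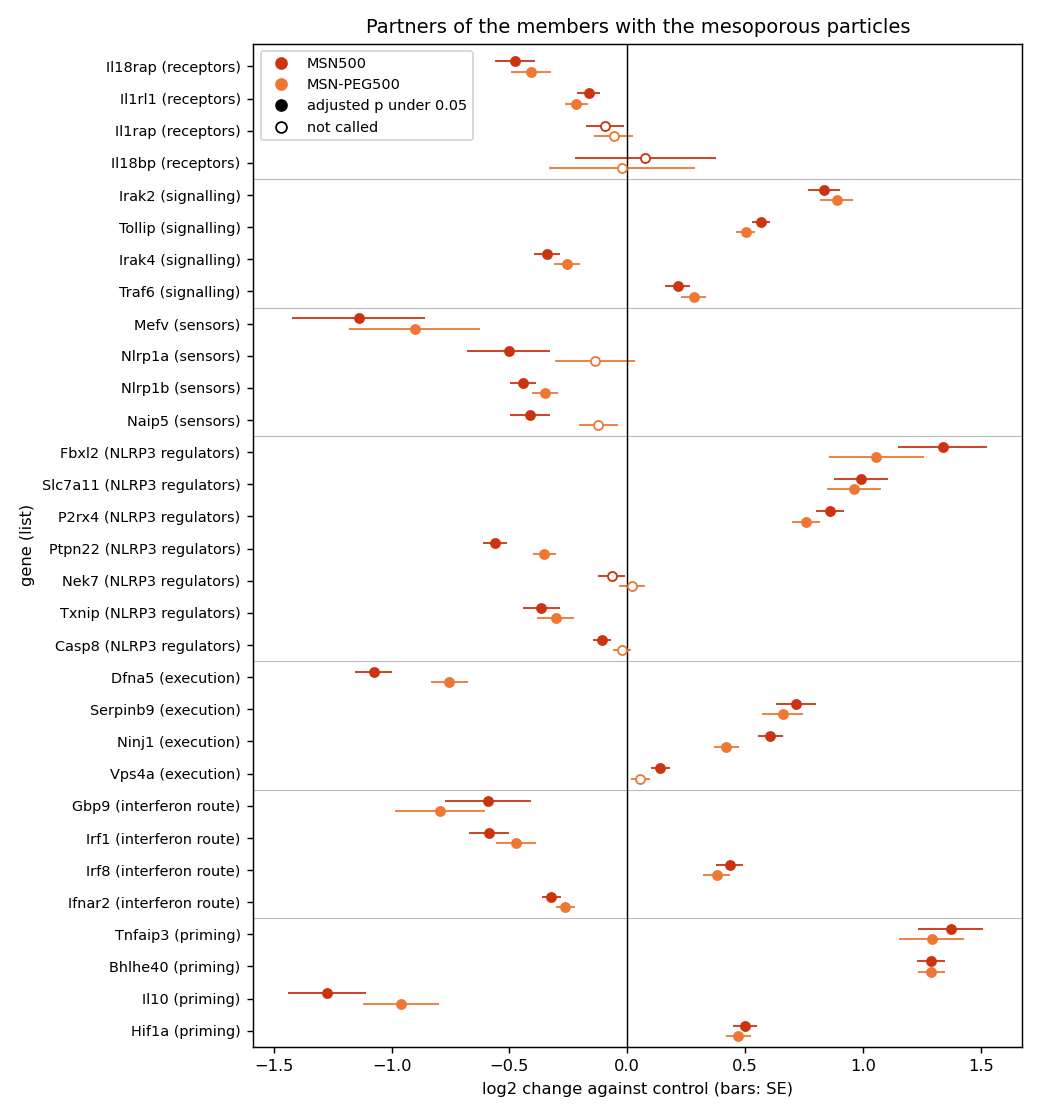
Log2 change against control of the named partners in MSN500 (red) and MSN-PEG500 (orange), grouped by list. Bars are the SE, and filled points have an adjusted p under 0.05. Tnfaip3, Fbxl2 and Bhlhe40 lie above 1 in both groups, and Dfna5, Il10 and Mefv lie below -1 in MSN500.

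The genes whose log2 CPM followed each of the 8 genes called over the 5 groups most closely over the 15 libraries were found by Pearson's r, as a description, over libraries that share their groups. For Il1rn they were Gdpd1 (r = 0.996), Degs1 and Ctsk (both 0.995). For P2rx7 they were Camk1d (0.989), Man2a2 (0.985) and Ptk2 (0.984), and for Casp4 Clec4e (0.981), Tmem9b (0.979) and Vimp (0.978). Il18 was closest to Cytip (0.970), Gsdmd to Thra (0.969), Il1a to Neurl2 (0.953), Nlrp3 to Ikbke (0.944) and Il1b to Phldb1 (0.929). None of the 9 was among the closest 3 of any of these 8, and no such search was made for Casp1.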

How the data were processed

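The authors deposited raw gene counts, whole numbers that were not normalized, and FPKM values, which per the file headers are those counts scaled by exonic length and library reads. The authors' deposited log2 ratios, scores (-10 log10 of an adjusted p) and exon scores come, per the file headers, from DESeq2 and from a chi-square test over exons. The builds named in the submitters' processing notes are GRCm38 and mm10, and the tools are Novoalign 2.08.03, limma 3.28.21 and DESeq2. Whether counting used strand is not stated in the sources used here. Each sample's description names its count column, and 0 columns belonged to other samples.

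Counts were tested with edgeR 4.0.16 in R 4.3.3 (filterByExpr, TMM, robust quasi-likelihood F-test on all 15 libraries, common biological coefficient of variation 0.0418) after a test on simulated data. Log2 CPM used a prior count of 2. Alternatives were DESeq2 1.42.0, limma-voom (limma 3.58.1), other scalings, no filter, a length trend, a replicate term, the groups compared alone and each library left out. Replicate pairs differed by more than sampling noise (chi-square per degree of freedom 2.19 to 6.81). At these depths 3 counts, the limit a count of 0 allows, are 0.110 to 0.170 CPM, for counting error only. The 9 genes and all lists were chosen with earlier results of these data known. Partners named are up to 4 called genes with the largest change per list, plus direct partners chosen by role. A gene of the execution and repair list and a gene of the interferon list are not reported here and were left out of those lists' counts. Start positions in the deposited table, counted from 0, were raised by 1.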

Additional observations from a re-analysis of the deposited data

How the results depend on the processing

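Over 63 gene and comparison values, 26 were called, and 18 of these kept their call under every alternative run, among them Il1rn in Stober50, MSN500 and MSN-PEG500 and Il18, Casp4, Gsdmd and P2rx7 in both mesoporous groups against control. The other 8 lost it under at least 1, 4 of the 37 uncalled values gained it under at least 1, and no called value changed sign. For MSN-PEG500 against MSN500 the count of called genes went from 1 to 0 with upper quartile factors, with no filter on low counts and with the 2 groups fitted alone, to 2 with the replicate block, and to 0 to 0 without each of the 6 libraries. For Stober50 against Stober500 it went from 2 to 1 with the 2 groups fitted alone, and ranged from 0 to 2 with 1 library left out. Leave-one-out counts ran from 6 to 7 for MSN500 against control, MSN-PEG500 against control and MSN500 against Stober500, from 6 to 8 over all 5 groups, stayed at 1 for Stober50 and at 0 for Stober500. The cause of these changes was not tested.

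Over the whole table, Stober500 against control went from 1 called gene to 3 with upper quartile factors, 9 with the replicate block, 2 without the length trend, 2 with the groups fitted alone, 97 with DESeq2, 2 with limma-voom and 0 to 90 with 1 library left out. MSN-PEG500 against MSN500 went from 1027 to 636 without the length trend and to 420 at the lowest with 1 library left out. The lowest such count was 412 of 969 for Stober50 against control and 144 of 287 for Stober50 against Stober500. Such counts ran from 4824 to 5167 for MSN500 against control (5489 with all libraries). They ran from 3723 to 4246 for MSN-PEG500 against control (4397 with all) and from 4291 to 4962 for MSN500 against Stober500 (5045 with all).

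Deviations of libraries with the same replicate number had r from -0.16 to 0.11 over 30 pairs, 1 of them above 0.1. Of 15 libraries, 7 were closest to a library of their own number. Since deviations were taken from means of 3 libraries, these correlations cannot decide whether the numbers pair the samples. With the replicate block, 7 of the 9 genes were called in MSN500 against control rather than 8, since Il1a missed the threshold (adjusted p = 0.0674), and Il1rn passed it in MSN-PEG500 against MSN500 (adjusted p = 0.0456). The count in MSN-PEG500 against control was 7 with and without the block. Over the whole table more genes were called with the block in every comparison. The number went from 5489 to 5633 in MSN500 against control and from 1027 to 1246 in MSN-PEG500 against MSN500.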
